A study of Homo sapiens with 27 samples.

Results

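The knockdown of CPSF1 was compared between LNCaP95 and the line from which it was derived, LNCaP. CPSF1 is the largest subunit of the cleavage and polyadenylation specificity factor, the complex that recognizes the poly(A) signal in a nascent transcript. Members were all libraries whose names begin with LNCaP or LNCaP95, which took in 18 of the 27 libraries of the series, 9 for each line. Within a line, 3 libraries carried a control hairpin (CTRL sh), 3 a first hairpin against CPSF1 (CPSF1 sh1) and 3 a second (CPSF1 sh2), and the 6 CPSF1 sh libraries were pooled against the 3 CTRL sh libraries. All cells were infected with lentivirus, selected with puromycin, seeded at 500000 per well and grown for 72 h. The effect in a line is the log2 fold change of CPSF1 sh over CTRL sh, and the difference reported for each gene is the effect in LNCaP95 minus the effect in LNCaP, so that a positive difference means a larger rise or a smaller fall in LNCaP95. LNCaP cells grew in standard RPMI medium and were selected with 2 µg/mL puromycin, whereas LNCaP95 cells grew in phenol red-free RPMI medium. In the study's methods both lines were maintained with the same share of fetal bovine serum, not described there as charcoal-stripped. The only other puromycin dose in the protocol is 1 µg/mL. Line, medium and selection therefore cannot be told apart. Although replicates were labelled as biological, nothing states that they were separate infections. The p-values thus measure the spread between these libraries, which may be technical. In the pooled CPSF1 sh groups that spread includes the spread between hairpins.

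LNCaP is a prostate cancer line of luminal type that grows in response to androgen. LNCaP95 was obtained from it by long growth without androgen and serves as a model of castration-resistant disease. Cleavage and polyadenylation set the 3' end of nearly every messenger RNA, so that loss of one factor can change both which end is used and how much transcript accumulates. The deposited values count reads over the exons of each gene together and carry no information on which poly(A) site was used.

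The targeted gene was lowered in both lines. CPSF1 (chromosome 8, 145618444 to 145634753 on the minus strand, GRCh37) stood at 152.8, 153.5 and 155.4 CPM (CPM, counts scaled to library size) in the LNCaP CTRL sh libraries. In the 6 CPSF1 sh libraries of LNCaP it was 87.7 to 110.4 CPM (median 98). In LNCaP95 the corresponding values were 96.4, 116 and 127 CPM and 56.6 to 67.9 CPM (median 59.6). The groups did not overlap in either line, and the effects were -0.66 ± 0.07 (SE) in LNCaP and -0.89 ± 0.07 in LNCaP95. The difference of -0.24 ± 0.11 did not pass the threshold in edgeR's quasi-likelihood test (adjusted p = 0.0643), but it did under 3 alternative analyses and in 3 of the 18 fits that left out a library. Without LNCaP95 CTRL sh replicate 1 it was -0.14, and without LNCaP95 CTRL sh replicate 2 it was -0.34. The depth of knockdown and the line cannot be told apart.

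Libraries held 8515624 to 15904518 counted reads. The 9 luminal prostate markers checked, among them KLK3, KLK2, HOXB13, FOXA1, KRT8, KRT18 and SLC45A3, all had reads in every library and summed to 4839 to 4939.5 CPM in LNCaP CTRL sh and 3696.5 to 4008 CPM in CPSF1 sh, and to 5622 to 5832 and 4345 to 4489 CPM in LNCaP95. In bulk RNA, fewer cells of a type and less RNA per cell cannot be told apart. Of 4 leukocyte markers, CD68 went from 3.05 to 3.67 CPM with CTRL sh to 9.91 to 18.1 CPM with CPSF1 sh in LNCaP and from 6.43 to 9.44 to 16.2 to 34.1 CPM in LNCaP95, with no difference called between the lines, while PTPRC, CD3E and CD79A stayed at or below 1.01 CPM. Of 2 endothelial markers, CDH5 was at or near 0 throughout. Their sum, nearly all of it VWF, was 22.8 to 28.5 CPM with CTRL sh and 9.47 to 12.9 CPM with CPSF1 sh in LNCaP, and 0.68 to 1.25 and 1.69 to 4.32 CPM in LNCaP95, so that the groups did not overlap in either line and lay in opposite order. The 3 basal markers summed to 1.28 to 2.16 CPM with CTRL sh and 3.85 to 6.39 CPM with CPSF1 sh in LNCaP, without overlap, and to 1.65 to 3.03 and 2.44 to 5.97 CPM in LNCaP95, with overlap. Neuroendocrine markers summed to at most 6.24 CPM, with overlap in both lines, and of 5 fibroblast markers DCN had no reads in any library. The fibroblast sum was 28.3 to 33.1 CPM with CTRL sh and 19.4 to 22.3 CPM with CPSF1 sh in LNCaP, without overlap, and 57.4 to 74.8 and 46.8 to 63.3 CPM in LNCaP95, with overlap. The part of these genes in the results was not tested. One LNCaP library stood apart. LNCaP CPSF1 sh1 replicate 3 had reads for 72 of 76 genes that otherwise belong to LNCaP95, summing to 34.6 CPM, against 46 to 62 genes and 14.2 to 19.5 CPM in the other 8 LNCaP libraries. Those 76 genes summed to 1350 to 1550 CPM in LNCaP95. Without that library 492 of 523 and 460 of 493 genes with opposite responses kept their class, and of 1004 listed or named genes tested 21 lost and 5 gained the call of a difference, and none of the called reversed. In LNCaP95 the library with most reads for the 99 genes of LNCaP alone was CPSF1 sh2 replicate 2, with 73 genes and 24.0 CPM against 34 to 60 genes and 7.57 to 21.1 CPM in the others. Without it 506 of 523 and 474 of 493 kept their class. Fewer did so without a CTRL sh library, with the lowest counts, 436 and 395, without LNCaP CTRL sh replicate 2. Without LNCaP95 CTRL sh replicate 1 they were 444 and 417. The replicates least alike were LNCaP95 CTRL sh 1 and 2, with a chi-square per degree of freedom of 5.22 against at most 3.43 in other pairs.

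Of 10686 genes above 2 CPM in all 18 libraries, 5456 differed between the lines in their response at an adjusted p below 0.05. The difference was positive in 2774 genes (26.0% of those tested) and negative in 2682 (25.1%), and its size passed 1 log2 unit in 510. Within LNCaP, knockdown raised 29.4% of genes and lowered 30.6%. Within LNCaP95 it raised 34.0% and lowered 35.3%. The median absolute effect was 0.21 log2 in LNCaP and 0.27 in LNCaP95, and across genes, which are not independent replicates, the 2 effects had a Pearson r of 0.43. A further 2410 genes changed in the same direction in both lines with no difference called. The first principal component separated the lines with 66.1% of the variance, the second separated CPSF1 sh from CTRL sh with 20.1%, and the third carried 7.44%.

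**Figure D1:**
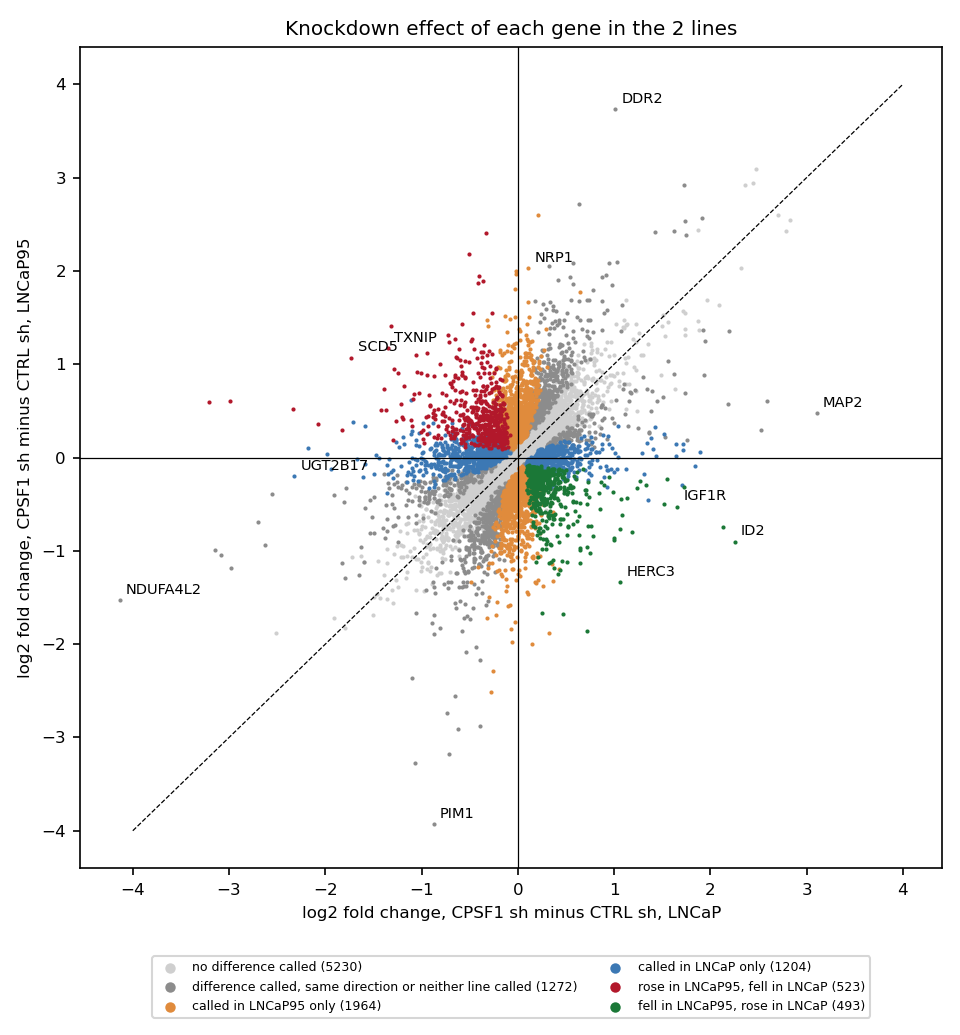
Each point is 1 of 10686 genes, plotted by its log2 fold change after knockdown in LNCaP (horizontal axis) and LNCaP95 (vertical axis), colored by class, with the dashed line marking equal effects. The upper left quadrant holds 523 genes that rose in LNCaP95 and fell in LNCaP, and the lower right quadrant 493 genes with the reverse.

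Among the genes with a difference, 523 rose in LNCaP95 and fell in LNCaP, each past the threshold (4.89% of genes tested), and 493 fell in LNCaP95 and rose in LNCaP (4.61%). Most of these effects were small, with both above 0.5 log2 in 69 and 29 genes. In 373 and 338 of them all 6 CPSF1 sh libraries lay on one side of all 3 CTRL sh libraries in both lines. With CPSF1 sh1 alone 458 and 405 kept these classes, and with CPSF1 sh2 alone 410 and 392. The balance of the classes depended on scaling. They held 738 and 327 genes with scaling by library size alone, and 710 and 350 with upper quartile scaling. A further 1964 genes (18.4%) changed in LNCaP95 only and 1204 (11.3%) in LNCaP only, with the difference itself past the threshold in each. The remaining differences were of size, in 584 genes that rose in both lines and 618 that fell in both, or had neither effect past the threshold, in 70.

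The genes that rose in LNCaP95 and fell in LNCaP were led, by the smaller of their 2 effects, by FAM198B, TXNIP, SCD5, HOXC12, ANTXR1, MARK1, AIM1, CD83, ST5 and C19orf66. FAM198B encodes a Golgi protein and lies on chromosome 4, 159045626 to 159094470 on the minus strand. Its level in LNCaP was 135, 140.3 and 144 CPM with CTRL sh and 51.0 to 62.9 CPM (median 56.2) with CPSF1 sh. In LNCaP95, FAM198B stood at 4.03, 4.37 and 4.38 CPM with CTRL sh and 7.51 to 14.8 CPM (median 11.5) with CPSF1 sh. All CPSF1 sh libraries were below the controls in LNCaP and above them in LNCaP95, although even after the rise the gene stayed far lower in LNCaP95. The difference was 2.73 ± 0.21 log2 (adjusted p = 1.58e-09), and it was 2.38 with CPSF1 sh1 and 3.07 with CPSF1 sh2.

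TXNIP, which binds thioredoxin and restrains glucose uptake, crossed between the lines. It fell from 428, 489 and 491 CPM to 163 to 206 CPM (median 186) in LNCaP, and rose from 147, 161 and 183 CPM to 281 to 461 CPM (median 361) in LNCaP95. The highest knockdown libraries of LNCaP95 reached the range of the LNCaP controls, and knockdown libraries of LNCaP overlapped the LNCaP95 controls. The difference was 2.52 ± 0.20 (adjusted p = 1.44e-09). SCD5, a stearoyl-CoA desaturase, fell from 17.1, 19.2 and 20.2 CPM to 4.76 to 6.39 CPM (median 5.69) in LNCaP and rose from 9.53, 9.91 and 10.0 CPM to 18.7 to 22.1 CPM (median 21.0) in LNCaP95. ANTXR1, a collagen-binding receptor of the cell surface, had effects of -1.28 ± 0.10 and 0.95 ± 0.09 in LNCaP and LNCaP95. The homeobox gene HOXC12 had -1.06 ± 0.10 and 1.09 ± 0.12, and MARK1, a kinase of microtubule-associated proteins, -0.94 ± 0.09 and 1.12 ± 0.10. For CD83, a surface protein of the immunoglobulin family, the effects were -1.01 ± 0.12 and 0.90 ± 0.10. AIM1, ST5 and C19orf66 fell by 0.95 to 1.24 log2 in LNCaP and rose by 0.88 to 0.92 in LNCaP95. That the groups did not overlap in either line was a condition for naming these 10 genes, and is not a result.

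**Figure D2:**
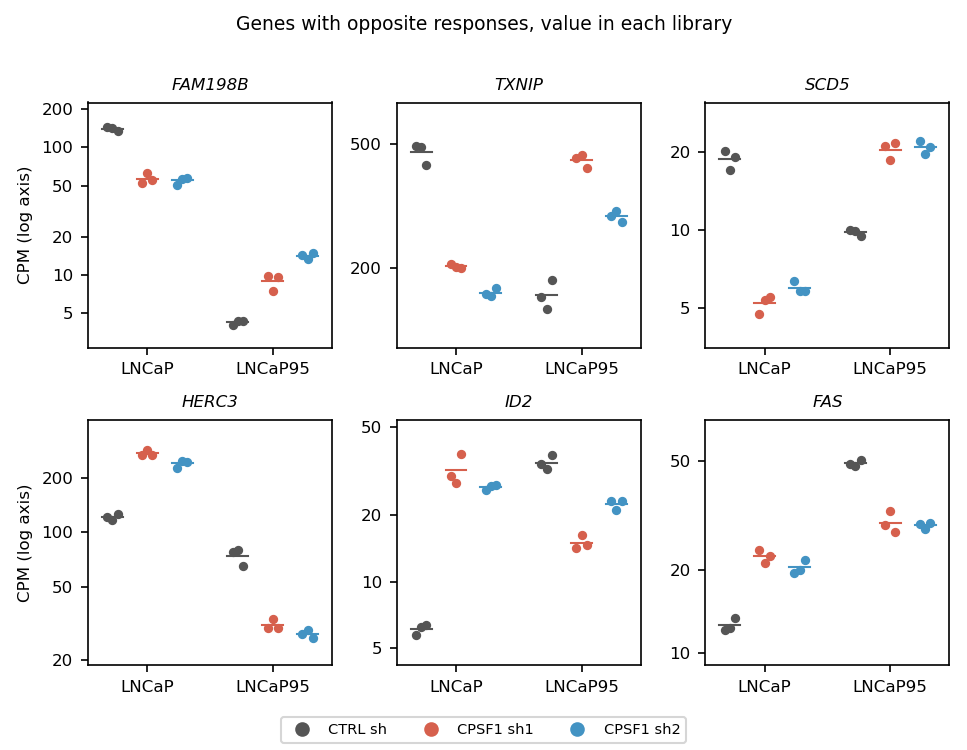
CPM of 6 genes in each of 18 libraries on a log axis that differs between panels; bars are means of 3 replicates. FAM198B, TXNIP and SCD5 fell in LNCaP and rose in LNCaP95, whereas HERC3, ID2 and FAS rose in LNCaP and fell in LNCaP95. The lack of overlap of CTRL sh and CPSF1 sh libraries in either line was a condition for naming these genes.

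In the reverse class the leading genes were HERC3, ID2, MXD1, KRT19, HIST1H2BC, KLF6, PTPRM, ZBTB10, ALPK2 and FAS. HERC3, a HECT-type ubiquitin ligase induced by androgen (chromosome 4, 89442199 to 89629693 on the plus strand), rose in LNCaP from 117, 122 and 127 CPM to 227 to 283 CPM (median 256). It fell in LNCaP95 from 65.7, 78.2 and 80.5 CPM to 26.5 to 33.7 CPM (median 29.5). Control levels of HERC3 were the higher in LNCaP, so knockdown moved the lines further apart, by a difference of -2.40 ± 0.10 (adjusted p = 1.97e-13). ID2, a partner of basic helix-loop-helix factors that keeps them from DNA, behaved otherwise. It rose in LNCaP from 5.75, 6.24 and 6.38 CPM to 25.8 to 37.9 CPM (median 27.7). In LNCaP95 it fell from 32.3, 33.9 and 37.5 CPM to 14.2 to 23.1 CPM (median 18.6). The line with the lower control level thus had the higher knockdown level. The ID2 difference was -3.15 ± 0.23 (adjusted p = 4.50e-10); without LNCaP CPSF1 sh1 replicate 3, its highest LNCaP library, it was -3.07.

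FAS, the death receptor and a p53 target, rose in LNCaP from 12.2, 12.3 and 13.4 CPM to 19.6 to 23.7 CPM (median 21.5) and fell in LNCaP95 from 47.9, 48.8 and 50.5 CPM to 27.5 to 32.8 CPM (median 29.2). Its difference was -1.50 ± 0.10 (adjusted p = 1.45e-10). MXD1, which pairs with MAX to repress transcription, had effects of 1.00 ± 0.21 in LNCaP and -0.88 ± 0.17 in LNCaP95. The zinc finger factors KLF6 (0.79 ± 0.18 and -0.84 ± 0.14) and ZBTB10 (0.74 ± 0.10 and -1.03 ± 0.09) moved the same way. For KLF6 the difference depended on the hairpin, at -2.12 with CPSF1 sh1 and -1.08 with CPSF1 sh2. PTPRM, a receptor-type tyrosine phosphatase, rose by 1.06 ± 0.06 in LNCaP and changed by -0.77 ± 0.05 in LNCaP95. For the kinase gene ALPK2 the values were 2.13 ± 0.18 and -0.74 ± 0.15. HIST1H2BC, an H2B histone, had 1.19 ± 0.17 and -0.80 ± 0.18. KRT19, a simple epithelial keratin, rose in LNCaP to 9.05 to 22.0 CPM (median 11.2) from 5.66, 6.32 and 6.42 CPM, and the highest of these was again LNCaP CPSF1 sh1 replicate 3. Without it the KRT19 effect in LNCaP was 0.77 in place of 1.00, and the difference between the lines was -1.63 in place of -1.86.

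Genes that responded in LNCaP95 but had an effect under 0.2 log2 in LNCaP were led by FAM102A, ZNF165, MAP3K8, MED8 and WEE1 among the falls. WEE1, the kinase that holds CDK1 inactive before mitosis, stood at 56.8, 60.1 and 60.8 CPM in LNCaP CTRL sh and at 49.1 to 59.8 CPM (median 54.8) in CPSF1 sh. In LNCaP95 it fell from 274, 292 and 317 CPM to 92.8 to 108 CPM (median 95.6). The LNCaP groups overlapped and the LNCaP95 groups did not, the latter being a condition for naming the gene. The difference was -1.49 ± 0.09 (adjusted p = 2.05e-11). MED8, a subunit of Mediator, was 28.9, 30.1 and 33.4 CPM and 27.8 to 32.8 CPM (median 30.0) in LNCaP, and 148, 152 and 161 CPM and 39.4 to 51.2 CPM (median 45.2) in LNCaP95. FAM102A changed by -1.99 ± 0.06 in LNCaP95 against 0.15 ± 0.06 in LNCaP (adjusted p = 0.0513 for the latter), and MAP3K8, a kinase upstream of ERK signaling, had -1.84 ± 0.12 against -0.07 ± 0.13. The zinc finger gene ZNF165 had -1.98 ± 0.10 against -0.06 ± 0.15.

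The rises confined by this rule to LNCaP95 were led by NRP1, FAM120C, TTC18, HTR2C and MBNL3. NRP1, a co-receptor for semaphorins and vascular endothelial growth factor, stood in LNCaP at 220.2, 224 and 226 CPM with CTRL sh. With CPSF1 sh it stood there at 209 to 279 CPM (median 238). In LNCaP95 it rose from 43.5, 47.5 and 48.8 CPM to 123 to 263 CPM (median 189.8), by 2.03 ± 0.23 log2. Its difference between the lines differed between hairpins, at 1.58 with CPSF1 sh1 and 2.16 with CPSF1 sh2. HTR2C, a serotonin receptor, stood at 3.03, 3.30 and 3.84 CPM in LNCaP95 CTRL sh and at 10.7 to 13.4 CPM (median 11.8) in CPSF1 sh. Its LNCaP effect was -0.03 ± 0.10. FAM120C, TTC18 and MBNL3, the last a muscleblind RNA-binding protein, had effects of 2.00 ± 0.14, 1.97 ± 0.13 and 1.66 ± 0.16 in LNCaP95.

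In LNCaP only, the leading falls were UGT2B17, PLP2, UGT2B15, ADCY7 and UBE2L6. UGT2B17 and UGT2B15 conjugate androgens with glucuronic acid and are treated with the androgen-regulated genes below. PLP2, a membrane proteolipid, fell from 24.9, 25.4 and 27.5 CPM to 4.31 to 6.51 CPM (median 5.95) in LNCaP. In LNCaP95 it stood at 20.6, 23.2 and 23.3 CPM and 22.4 to 28.4 CPM (median 23.2). The LNCaP controls lay somewhat above those of LNCaP95, and the LNCaP knockdown libraries lay below all others, with a difference of 2.28 ± 0.14 (adjusted p = 4.64e-11). ADCY7, an adenylate cyclase, had effects of -1.94 ± 0.15 in LNCaP and -0.12 ± 0.12 in LNCaP95. UBE2L6, the E2 enzyme of the ubiquitin-like protein ISG15, had -1.67 ± 0.16 and -0.01 ± 0.13. The leading rises were SGK223, MICAL1, GPC6, TMTC2 and ALDH4A1. GPC6, a cell-surface glypican, rose from 5.46, 6.20 and 7.09 CPM to 18.1 to 22.4 CPM (median 21.0) in LNCaP. In LNCaP95 it stood at 39.8, 41.2 and 41.6 CPM and 40.8 to 44.7 CPM (median 43.5). The knockdown level of GPC6 in LNCaP thus approached, without reaching, that of LNCaP95. SGK223, a pseudokinase, and MICAL1, an enzyme that oxidizes actin, had effects of 1.89 ± 0.11 and 1.84 ± 0.14 in LNCaP. TMTC2 and ALDH4A1, a mitochondrial enzyme of proline breakdown, had 1.71 ± 0.11 and 1.65 ± 0.08.

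The largest differences among genes that changed in one direction in both lines were those of PIM1, MAP2 and C1orf63 on the lower side, and DDR2, NDUFA4L2 and ZNF629 on the higher. PIM1, a growth-promoting kinase and target of JAK-STAT signaling, stood at 213, 246 and 262 CPM in LNCaP95 CTRL sh and at 9.88 to 22.1 CPM (median 14.1) in CPSF1 sh. In LNCaP it was 16.3, 16.5 and 19.1 CPM and 7.57 to 10.3 CPM (median 9.45). The high control level was seen in LNCaP95 alone, and after knockdown the lines were close, with a difference of -3.05 ± 0.25 (adjusted p = 4.23e-09). MAP2, a neuronal microtubule-associated protein, rose from 4.49, 4.60 and 5.13 CPM to 34.7 to 50.4 CPM (median 40.5) in LNCaP and from 114, 114 and 127 CPM to 157 to 173 CPM (median 164) in LNCaP95. DDR2, a receptor for fibrillar collagen, rose from 7.29, 8.46 and 10.3 CPM to 13.8 to 21.2 CPM (median 16.7) in LNCaP and from 2.67, 3.21 and 3.69 CPM to 29.8 to 59.0 CPM (median 39.8) in LNCaP95. NDUFA4L2, a hypoxia-induced mitochondrial protein, fell from 182, 199 and 204 CPM to 4.21 to 23.5 CPM (median 8.11) in LNCaP and from 124, 141 and 156 CPM to 25.4 to 71.7 CPM (median 48.4) in LNCaP95. Its difference depended on the hairpin, because the difference was 3.97 with CPSF1 sh1 and 1.54 with CPSF1 sh2. C1orf63 changed by -0.39 ± 0.16 and -2.88 ± 0.13, and the zinc finger gene ZNF629 by -2.56 ± 0.12 and -0.39 ± 0.15, with overlapping groups in LNCaP95.

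Some genes had enough reads for a test in one line alone. There were 99 genes above 2 CPM in all 9 LNCaP libraries with a mean below 0.5 CPM in LNCaP95, of which 24 rose and 35 fell (59.6% called). By the same rule 76 genes were tested in LNCaP95 alone, of which 31 rose and 23 fell (71.1%). BCHE, butyrylcholinesterase, fell in LNCaP from 264, 268 and 269 CPM to 26.1 to 32.8 CPM (median 29.9). CLU, the chaperone clusterin, rose in LNCaP from 10.8, 12.7 and 14.1 CPM to 58.4 to 113 CPM (median 64.7). THBS1, the matrix protein thrombospondin, rose from 9.11, 10.0 and 10.3 CPM to 33.3 to 45.0 CPM (median 40.0). The other leading genes were CNGB3 among the rises and SLITRK3 and RGS11 among the falls. In LNCaP95, SEMA6D, a transmembrane semaphorin, rose from 8.07, 8.85 and 11.4 CPM to 25.5 to 55.7 CPM (median 37.7). CA9, the hypoxia-induced carbonic anhydrase, was also at 0.77 to 1.28 CPM in LNCaP CTRL sh and at no more than 0.22 CPM in LNCaP CPSF1 sh, and in LNCaP95 fell from 51.1, 51.6 and 58.6 CPM to 10.6 to 23.3 CPM (median 18.6). DIO2 and MUM1L1 also rose and ETV4 and TGFB1 fell. The count of falls in LNCaP95 was 14 without LNCaP95 CTRL sh replicate 2, and the count of rises was 55 when a mean of up to 1 CPM in LNCaP was allowed. ETV4 and TGFB1 were at 2.58 and 0.793 CPM in LNCaP CPSF1 sh1 replicate 3, the library that stood apart, and at no more than 0.122 and 0.383 CPM in the other LNCaP libraries.

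Androgen-induced genes are those whose transcription rises when androgen is present. Of 25 such genes listed, 24 passed the filter, and the difference was lower in LNCaP95 for 17 and higher for 3. In LNCaP 11 rose and 8 fell, whereas in LNCaP95 2 rose and 12 fell. Counts of this and the following lists stand against all genes tested, of which 29.4% rose and 30.6% fell in LNCaP, 34.0% rose and 35.3% fell in LNCaP95, and 26.0% had a higher and 25.1% a lower difference. Their median effect went from 0.13 in LNCaP to -0.19 in LNCaP95, and the median difference was -0.66, against -0.000911 over all genes. KLK3, which encodes prostate-specific antigen, fell in both lines and more in LNCaP, from 1089, 1131 and 1164 CPM to 323 to 416 CPM (median 364) in LNCaP and from 2005, 2012 and 2037 CPM to 944 to 1130 CPM (median 1044) in LNCaP95. TMPRSS2, a serine protease, fell more in LNCaP95, from 922, 951 and 991 CPM to 247 to 403 CPM (median 318), with effects of -0.55 ± 0.12 and -1.57 ± 0.11. FKBP5, a chaperone of steroid receptors, rose in LNCaP from 128, 133 and 140.4 CPM to 249.7 to 309 CPM (median 274) and in LNCaP95 stayed between 445 and 531 CPM in all 9 libraries. The transcription factor MAF rose by 2.59 ± 0.17 in LNCaP and 0.61 ± 0.15 in LNCaP95. The elongation factor ELL2 had effects of 1.52 ± 0.15 and 0.25 ± 0.13, and the acyl-CoA synthetase ACSL3 1.01 ± 0.04 and 0.05 ± 0.04. Members of the list moved both ways within each line.

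Genes that androgen represses, among them the UGT2B enzymes, moved against this. Of 12 listed, 9 were tested, and 7 were higher and 1 lower in their LNCaP95 response. In LNCaP 7 fell and 2 rose, and in LNCaP95 4 rose and none fell past the threshold. Among the 9 the median effect went from -0.85 in LNCaP to 0.15 in LNCaP95, and the median difference was 1.48. UGT2B17 (chromosome 4, 69402902 to 69434245 on the minus strand) fell in LNCaP from 324, 334 and 346 CPM to 48.5 to 93.7 CPM (median 65.5), and in LNCaP95 it stood at 133, 151 and 164 CPM and 116 to 151 CPM (median 129). UGT2B15 followed the same course, from 316, 324 and 346 CPM to 69.5 to 99.0 CPM (median 83.1) in LNCaP, with 139, 156 and 164 CPM and 145 to 171 CPM (median 158) in LNCaP95. In both genes the LNCaP groups were far apart and the LNCaP95 groups overlapped, and after knockdown LNCaP lay below LNCaP95. UGT2B10 fell in LNCaP (-0.58 ± 0.17) and rose in LNCaP95 (1.43 ± 0.25). These enzymes share long stretches of sequence, so reads could be split among them and their separate values are uncertain. ST7 and PEG3 also fell in LNCaP (-1.03 and -0.79) and rose in LNCaP95 (0.69 and 0.69), while DPP4, a surface peptidase, was the 1 lower gene.

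Of 13 genes tested on a list of steroid receptor cofactors and prostate lineage factors, 6 were higher and 2 lower in LNCaP95, where 26.0% and 25.1% of all genes were, and the median difference was 0.015, with its sign kept in 25 of 32 alternatives. HOXB13, a prostate lineage homeobox factor, fell in LNCaP (-0.30 ± 0.04) and rose in LNCaP95 (0.27 ± 0.04), as did the coactivator NCOA1 (-0.15 ± 0.04 and 0.58 ± 0.04). The corepressor NCOR1 fell only in LNCaP95 (-0.62 ± 0.05, against 0.09 ± 0.05), and the pioneer factor FOXA1 fell in both (-0.48 ± 0.04 and -0.24 ± 0.04).

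**Figure D3:**
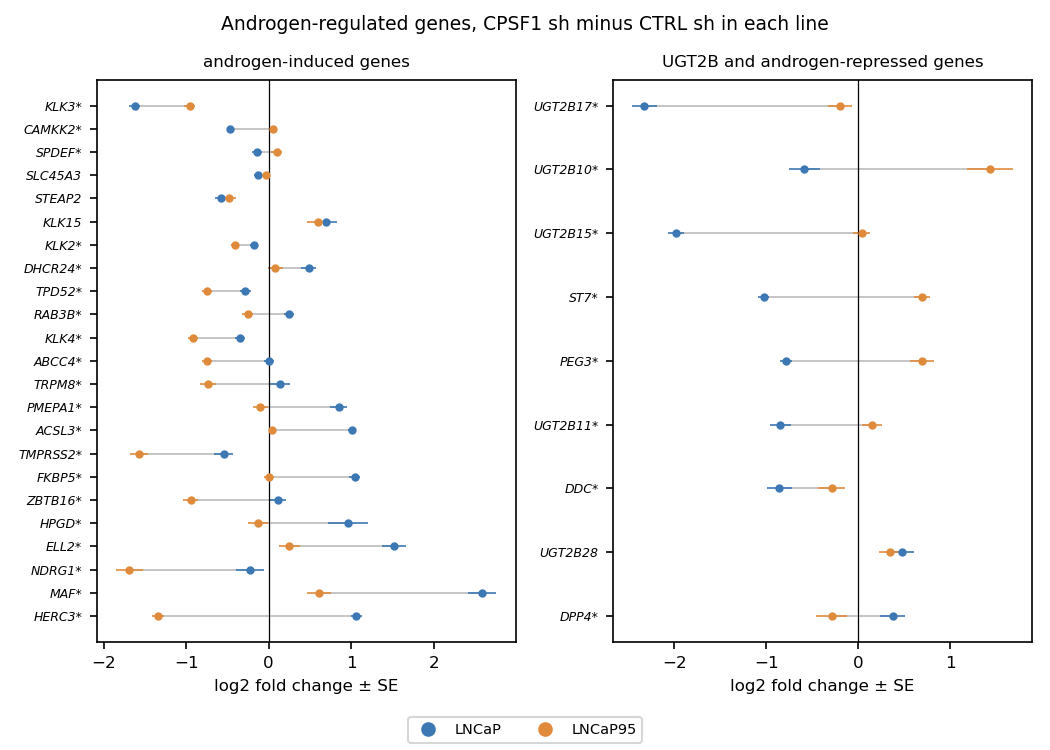
Log2 fold change of CPSF1 sh over CTRL sh with its SE (horizontal axis) in LNCaP and LNCaP95 for 23 of the 24 androgen-induced genes (left) and 9 UGT2B and androgen-repressed genes (right), ordered by the difference; an asterisk marks a difference called at an adjusted p below 0.05. On the left 17 differences are called lower in LNCaP95, and on the right 7 of 9 are called higher.

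Cell cycle genes separated by phase. Of 42 genes of the G1/S transition and DNA replication 41 were tested, and 31 were higher in LNCaP95 and none lower. In LNCaP95 33 rose and 1 fell, and in LNCaP 11 rose and 6 fell. Over the 41 the median effect went from 0.12 in LNCaP to 0.56 in LNCaP95, and the median difference was 0.45. The minichromosome maintenance helicase gene MCM3 stood at 182, 184 and 191 CPM and 154 to 192 CPM (median 171) in LNCaP, and rose in LNCaP95 from 75.8, 76.6 and 91.2 CPM to 156 to 202 CPM (median 179). The LNCaP95 controls lay below those of LNCaP, and the knockdown libraries of the 2 lines overlapped. Cyclin E2, CCNE2, rose from 29.9, 32.5 and 35.4 CPM to 40.2 to 47.5 CPM (median 40.9) in LNCaP and from 11.8, 13.1 and 13.6 CPM to 26.5 to 39.3 CPM (median 34.7) in LNCaP95. MCM2, MCM4, MCM5, MCM6 and MCM7 rose by 0.47 to 0.96 log2 in LNCaP95 against effects of 0.08 to 0.17 in LNCaP. The activator E2F1 had effects of 0.18 ± 0.08 and 0.83 ± 0.08, the licensing factor CDT1 -0.08 ± 0.08 and 0.78 ± 0.08, and PCNA, the sliding clamp, 0.14 ± 0.07 and 0.73 ± 0.07. CDK2, TK1 and RRM1 had differences between -0.03 and 0.05, none past the threshold.

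Genes of G2 and mitosis moved the other way. Of 40 tested, 22 were lower in LNCaP95 and 1, FOXM1, was higher. In LNCaP95 34 fell and 2 rose, and in LNCaP 17 fell and 7 rose. Their median effect went from -0.10 in LNCaP to -0.43 in LNCaP95, and the median difference was -0.35. CDC20, which activates the anaphase-promoting complex, rose in LNCaP from 106, 106 and 109 CPM to 136 to 156 CPM (median 142) and fell in LNCaP95 from 447, 521 and 522 CPM to 192 to 236 CPM (median 215). The mitotic kinase AURKA rose from 58.3, 60.7 and 60.8 CPM to 69.5 to 81.2 CPM (median 75.8) in LNCaP and fell from 149, 158 and 164 CPM to 105 to 113 CPM (median 109) in LNCaP95. Opposite responses were also called in PLK1 (0.33 and -0.31), TPX2 (0.14 and -0.44), NDC80 (0.17 and -0.31) and ANLN (0.19 and -0.13). MKI67, a proliferation marker, had effects of -0.03 ± 0.07 and 0.04 ± 0.06. The median difference of these genes was -0.15 for CPSF1 sh1 and -0.49 for CPSF1 sh2, and in 30 of the 40 the difference between the lines itself differed between hairpins, with a change of sign in 12 of those 30, in a test added after the data were seen that was called for 21.4% of all genes. For the G1/S genes the medians were 0.46 for CPSF1 sh1 and 0.53 for CPSF1 sh2.

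**Figure D4:**
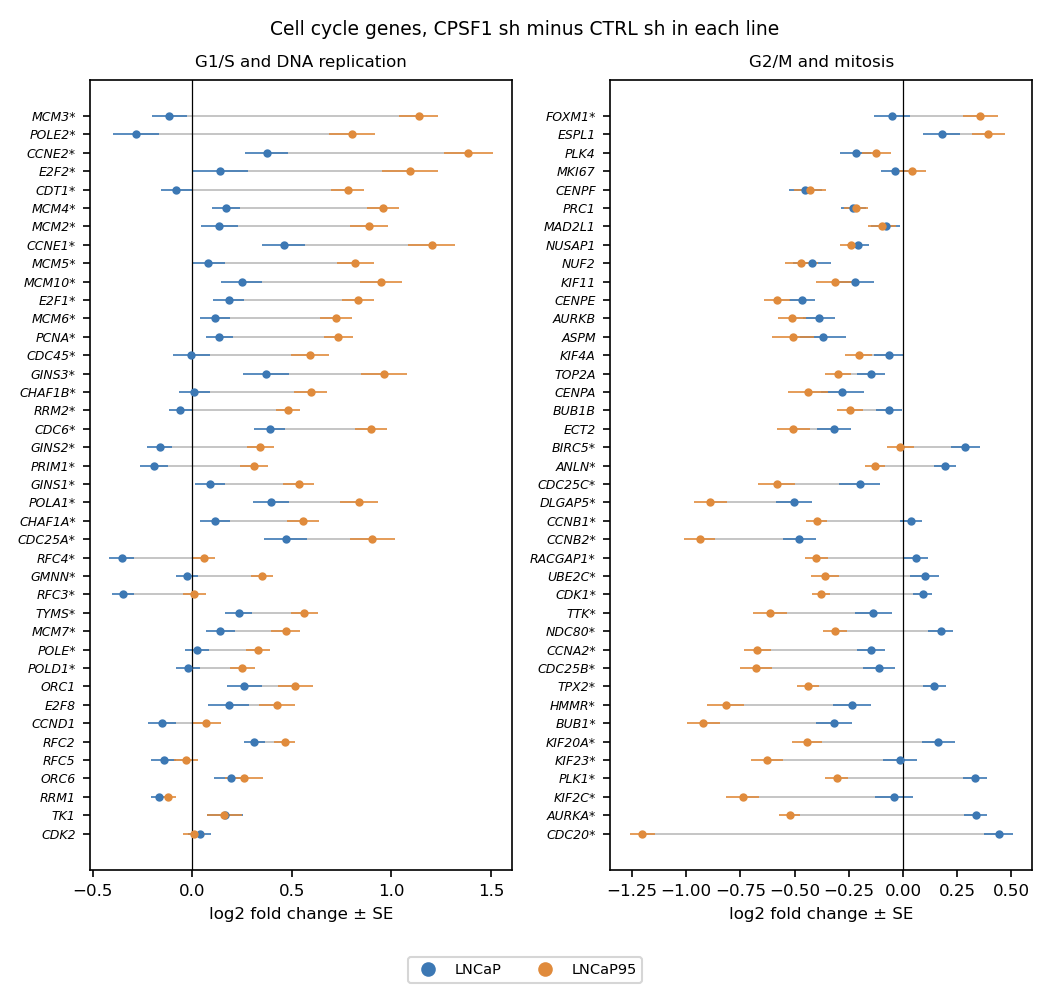
Log2 fold change of CPSF1 sh over CTRL sh with its SE (horizontal axis) in LNCaP and LNCaP95 for 40 of the 41 G1/S and DNA replication genes (left) and 40 G2/M genes (right), ordered by the difference; an asterisk marks a difference called at an adjusted p below 0.05. On the left 31 differences are called higher in LNCaP95, and on the right 22 are called lower.

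Promoters of both groups are shown because the 2 lists differed in the direction of their called differences and in how often they carried 2 short motifs. Sequences are those of RefSeq (GRCh38.p14), and the 250 bases before each start site were searched on both strands. E2F-type motifs, TTTGGCGC, TTTCCCGC, TTTCGCGC and TTTGCCGC, were found in 14 of 34 matched G1/S genes (41.2%) and 3 of 33 matched G2/M genes (9.09%), against 3.40% of 27305 genes with a promoter entry. The CHR motif TTTGAA, named for the cell cycle genes homology region, was found in 19 of 33 G2/M genes (57.6%) and 1 of 34 G1/S genes (2.94%), against 16.1% of all. For 3 G1/S genes with a motif and a higher response in LNCaP95, 80 bases are printed 5' to 3' on the coding strand, with E2F-type motifs of either strand in capitals.
MCM3, chr6:52284873-52284952, minus strand: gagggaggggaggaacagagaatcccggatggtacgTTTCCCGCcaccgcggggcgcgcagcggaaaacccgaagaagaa
E2F2, chr1:23531234-23531313, minus strand: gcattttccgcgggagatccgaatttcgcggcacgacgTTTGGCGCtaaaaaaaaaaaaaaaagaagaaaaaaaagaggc
E2F1, chr20:33686386-33686465, minus strand: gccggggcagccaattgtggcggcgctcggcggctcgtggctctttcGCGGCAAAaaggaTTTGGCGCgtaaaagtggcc
For 3 G2/M genes with a lower response the same is given, with TTTGAA in capitals.
CDC20, chr1:43358879-43358958, plus strand: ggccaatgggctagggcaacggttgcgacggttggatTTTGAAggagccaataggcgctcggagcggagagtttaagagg
PLK1, chr16:23678809-23678888, plus strand: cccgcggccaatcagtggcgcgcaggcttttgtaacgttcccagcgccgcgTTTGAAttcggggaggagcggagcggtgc
KIF23, chr15:69414257-69414336, plus strand: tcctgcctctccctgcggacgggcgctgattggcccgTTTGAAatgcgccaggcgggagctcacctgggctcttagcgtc
Their differences were 1.25 for MCM3, 0.95 for E2F2, 0.65 for E2F1, -1.64 for CDC20, -0.64 for PLK1 and -0.61 for KIF23, which encodes a kinesin of cytokinesis. Within the G1/S list the median difference was 0.473 with a motif and 0.474 without. Within the G2/M list it was -0.188 with TTTGAA and -0.278 without. A match is a description of the sequence, not of binding. The motif of sterol-responsive promoters, CACCCCAC, was found in 1 of 18 matched cholesterol genes (5.56%), against 2.97% of all genes. The core motifs of hypoxia response elements, ACGTG and GCGTG, were found in 13 of 15 hypoxia genes and 16 of 19 glycolytic genes, against 47.4% of all.

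Most targets of p53, the transcription factor that answers DNA damage, had the higher effect in LNCaP. Of 27 tested, 19 had a lower effect in LNCaP95 and 2 a higher one. In LNCaP 18 rose and 3 fell, and in LNCaP95 7 rose and 10 fell. The median effect went from 0.32 in LNCaP to -0.01 in LNCaP95, and the median difference was -0.43. CDKN1A, which encodes the p21 inhibitor of cyclin-dependent kinases, rose in LNCaP from 207, 208 and 230.0 CPM to 572 to 696 CPM (median 613) and in LNCaP95 from 291, 302 and 324 CPM to 332 to 387 CPM (median 352). MDM2, the ubiquitin ligase that restrains p53, rose from 154, 159.8 and 167 CPM to 255 to 290.4 CPM (median 282) in LNCaP, and in LNCaP95 its effect was 0.11 ± 0.04. GADD45A rose in LNCaP from 27.8, 28.1 and 28.1 CPM to 32.6 to 42.4 CPM (median 37.2) and fell in LNCaP95 from 94.0, 102 and 107 CPM to 39.9 to 46.2 CPM (median 42.4). The stress sensor SESN2 (0.43 and -0.72), the death receptor TNFRSF10B (0.10 and -0.35), DDB2 (0.25 and -0.19) and FAS also rose in LNCaP and fell in LNCaP95. BAX, an effector of apoptosis, rose in both (0.81 ± 0.09 and 0.73 ± 0.10). The median difference was -0.37 for CPSF1 sh1 and -0.49 for CPSF1 sh2.

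Replication-dependent histone genes end in a stem-loop rather than a poly(A) tail, and libraries made from polyadenylated RNA capture them only in part. Of 71 such genes, 12 passed the filter, and 10 were lower in LNCaP95 and none higher. All 12 rose in LNCaP, and in LNCaP95 7 fell and 2 rose. For the 12 the median effect went from 0.98 in LNCaP to -0.30 in LNCaP95, and the median difference was -1.27. Without the filter on low counts, when more histone genes enter, the median difference was -0.73. HIST1H1C, a linker histone, rose from 36.0, 36.9 and 38.7 CPM to 102 to 116 CPM (median 109) in LNCaP and fell from 57.7, 62.3 and 65.9 CPM to 48.6 to 55.1 CPM (median 53.4) in LNCaP95. HIST2H2BE, an H2B histone, rose from 39.6, 41.1 and 41.6 CPM to 113 to 161 CPM (median 134) in LNCaP, with 59.3, 66.8 and 68.2 CPM and 48.9 to 53.4 CPM (median 52.3) in LNCaP95. Groups did not overlap in either line for either gene. Near-identical copies exist for many of these genes, so single values are uncertain, and more histone RNA and more polyadenylation of it cannot be told apart in these libraries.

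None of the 23 tested genes of cholesterol synthesis and uptake had a positive difference, and 18 were called lower. In LNCaP 9 rose and 5 fell, and in LNCaP95 1 rose and 16 fell. The median effect went from 0.14 in LNCaP to -0.38 in LNCaP95, and the median difference was -0.46. HMGCS1 (0.23 and -0.57), SC5D (0.36 and -0.38), DHCR7 (0.28 and -0.22) and NSDHL (0.25 and -0.15), all enzymes of the pathway, had opposite responses. Squalene synthase, FDFT1, had 0.14 ± 0.07 and -0.82 ± 0.07. SREBF2, the regulator of the pathway, fell in both with no difference called (-0.38 ± 0.06 and -0.47 ± 0.06).

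Of 16 genes of fatty acid synthesis 11 were lower and 3 higher in LNCaP95, and the median effect went from -0.20 in LNCaP to -0.57 in LNCaP95, and the median difference was -0.38. FASN, fatty acid synthase, had effects of -0.11 ± 0.07 and -0.93 ± 0.07, and the desaturase SCD -0.58 ± 0.11 and -1.15 ± 0.11. ELOVL1 and ELOVL6, enzymes that lengthen fatty acid chains, took opposite courses. ELOVL1 rose in LNCaP from 108, 114 and 118 CPM to 170.4 to 186 CPM (median 178) and fell in LNCaP95 from 355, 376 and 395 CPM to 180.5 to 201 CPM (median 187). ELOVL6 fell in LNCaP from 115, 117 and 121 CPM to 69.8 to 84.9 CPM (median 74.8) and rose in LNCaP95 from 17.9, 18.5 and 19.7 CPM to 35.1 to 44.0 CPM (median 40.1). Their differences were -1.64 ± 0.07 and 1.71 ± 0.11, each larger than the spread between libraries within the fitted groups (adjusted p = 7.27e-14 and 5.38e-11). ELOVL1 lies near CDC20 and MED8 on chromosome 1, within 43824626 to 43855479, and all 3 genes fell in LNCaP95.

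Immediate early genes, which respond within minutes to growth signals, and feedback genes of JAK-STAT signaling were mostly lower in LNCaP95. Of 36 listed, 23 were tested, and 14 were lower and 4 higher in LNCaP95. In LNCaP 15 fell and 4 rose, and in LNCaP95 19 fell and 2 rose. Over the list the median effect went from -0.35 in LNCaP to -0.66 in LNCaP95, and the median difference was -0.83. Without the filter on low counts, when more of the listed genes enter, the median difference was -0.47. GADD45B had effects of -0.71 ± 0.20 and -3.18 ± 0.15, the AP-1 subunit JUND -1.10 ± 0.16 and -2.36 ± 0.15, the orphan receptor NR4A1 -0.53 ± 0.10 and -2.08 ± 0.08, and DUSP1, a phosphatase of MAP kinases, -0.58 ± 0.13 and -1.86 ± 0.12. PIM1 and its relative PIM3 (-0.32 ± 0.08 and -1.25 ± 0.07) belong here as well. FOSL2, another AP-1 subunit, had opposite responses (0.65 ± 0.09 and -0.49 ± 0.08), as did SOCS2, an inhibitor of cytokine signaling (0.34 ± 0.06 and -0.57 ± 0.05).

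Stress genes overlapped with these in ATF3 (0.26 ± 0.13 and -1.38 ± 0.12). Among 31 genes of the integrated stress and unfolded protein responses, 14 were lower in LNCaP95 and none higher, with the median effect going from -0.0048 in LNCaP to -0.41 in LNCaP95, and the median difference was -0.27. PPP1R15A, which restores translation after stress, stood at 9.07, 9.20 and 9.40 CPM and 5.58 to 9.51 CPM (median 7.69) in LNCaP, and fell in LNCaP95 from 53, 58.2 and 66.4 CPM to 8.73 to 12.4 CPM (median 10.3). The knockdown libraries of LNCaP95 thus came close to the LNCaP controls. DDIT3, the transcription factor CHOP, had effects of 0.10 ± 0.13 and -1.44 ± 0.10, and DNAJB9, a chaperone of the endoplasmic reticulum, 0.30 ± 0.08 and -0.76 ± 0.07. In 23 of the 31 the difference between lines differed between hairpins, against 21.4% of all genes, and in 11 of those 23 its sign did. For ASNS, asparagine synthetase, the difference was 0.11 with CPSF1 sh1 and -0.76 with CPSF1 sh2.

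Most glycolytic enzymes fell in both lines and further in LNCaP95. Of 19 tested, 16 fell in LNCaP and all 19 in LNCaP95, and the difference was lower in 13 and higher in 1, with a median effect from -0.38 in LNCaP to -0.72 in LNCaP95, and the median difference was -0.33. ALDOA, aldolase A, had effects of -0.38 ± 0.10 and -1.16 ± 0.10, and GPI, glucose-6-phosphate isomerase, -0.45 ± 0.08 and -1.08 ± 0.08. The glucose transporter gene SLC2A1 fell in LNCaP95 and not past the threshold in LNCaP (-0.12 ± 0.08 and -1.30 ± 0.08), and hexokinase HK1 rose in LNCaP and fell in LNCaP95 (0.42 ± 0.04 and -0.14 ± 0.04). PFKP, the platelet form of phosphofructokinase, was the 1 enzyme with a called higher difference (-1.27 ± 0.11 and -0.72 ± 0.10). The difference between lines differed between hairpins in 12 of the 19 enzymes, against 21.4% of all genes, and in 4 of those 12 its sign did. Targets of hypoxia-inducible factors outside glycolysis fell in 18 of 19 in LNCaP and in 19 of 19 in LNCaP95. The difference was lower in 8, among them BHLHE40 (-2.29), ANKRD37 (-2.21) and HILPDA (-1.90), and higher in NDUFA4L2. The median difference of this list was -0.01 for CPSF1 sh1 and -0.61 for CPSF1 sh2, and in 16 of 19 members it differed between hairpins. For VEGFA, an angiogenic growth factor, the difference was 0.24 with CPSF1 sh1 and -0.61 with CPSF1 sh2, and for PDK1, a kinase that inhibits pyruvate dehydrogenase, the difference was 0.57 with CPSF1 sh1 and -0.34 with CPSF1 sh2.

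Genes of the respiratory chain differed by small amounts. Of 58 nuclear-encoded subunits 37 were lower and 1 higher in LNCaP95, and 24 rose and 7 fell in LNCaP against 4 and 29 in LNCaP95. The median effect went from 0.08 in LNCaP to -0.10 in LNCaP95, and the median difference was -0.20, and the differences ranged from -0.53 to 0.15. By complex, 12 of 22 genes of the NDUF family were lower, and 11 of 14 of the ATP synthase. Of the 13 genes of the mitochondrial genome 9 were lower and none higher, with a median effect from 0.13 in LNCaP to -0.17 in LNCaP95, and the median difference was -0.29. In all 13 the difference between lines differed between hairpins, against 21.4% of all genes, with medians of -0.47 for CPSF1 sh1 and -0.12 for CPSF1 sh2. Among 26 genes of the citric acid cycle 13 were lower and 3 higher, with a median difference of -0.12. With scaling by library size alone the medians of the nuclear-encoded subunits and the citric acid cycle genes were -0.10 and -0.030.

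Lysosomal and autophagy genes were also lower, in 21 of 36, and higher in 1. NPC1, which exports cholesterol from lysosomes, rose in LNCaP from 137, 142 and 154 CPM to 363 to 463 CPM (median 411) and fell in LNCaP95 from 175, 176 and 197 CPM to 121 to 141 CPM (median 129), a difference of -2.02 ± 0.10 (adjusted p = 3.63e-12). The protease CTSD had effects of 0.66 ± 0.07 and -0.01 ± 0.07, and NEU1, a sialidase, 0.15 ± 0.08 and -1.06 ± 0.08. The median effect of the list went from 0.14 in LNCaP to -0.09 in LNCaP95, and the median difference was -0.28.

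Among signaling and surface genes, IGF1R, the receptor of insulin-like growth factor 1, rose in LNCaP from 40.7, 43.5 and 44.1 CPM to 126 to 144 CPM (median 133) and fell in LNCaP95 from 354, 368 and 414 CPM to 245 to 277 CPM (median 264), a difference of -2.18 ± 0.08 (adjusted p = 2.31e-14). Its adaptor IRS1 did the same (0.89 ± 0.08 and -0.30 ± 0.06). FGFR3 rose in LNCaP alone (1.13 ± 0.18 and -0.12 ± 0.19), and PIK3R1, the regulatory subunit of phosphoinositide 3-kinase, had -0.20 ± 0.11 and 0.97 ± 0.11. Of the 21 growth factor genes tested 8 were higher and 4 lower, where 26.0% and 25.1% of all genes were. In the pathways of WNT, Notch and Hippo 14 of 22 were higher and 4 lower, with a median effect from -0.14 in LNCaP to 0.10 in LNCaP95, and the median difference was 0.51. WNT5A fell in LNCaP from 9.78, 10.4 and 10.4 CPM to 3.21 to 4.73 CPM (median 3.62), and in LNCaP95 it stood at 17.3, 18.7 and 19.3 CPM and 15.3 to 20.9 CPM (median 18.6). The WNT antagonists NKD1 (-0.81 and 0.02) and RNF43 (-0.56 and -0.05) fell in LNCaP only, and the receptor FZD4 was lower in LNCaP95 (-0.22 and -1.55).

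Of 46 matrix, adhesion and mesenchymal genes 21 were tested, with 9 higher and 5 lower, where 26.0% and 25.1% of all genes were. FN1, fibronectin, stood at 1182, 1230 and 1306 CPM and 816 to 1120 CPM (median 949) in LNCaP and rose in LNCaP95 from 587, 591 and 657 CPM to 1788 to 2804 CPM (median 2265). LNCaP95 controls had the lower level, and knockdown carried the gene past all LNCaP libraries. The LNCaP effect of -0.36 ± 0.13 had an adjusted p of 0.0242, which was 0.0505 without the library that stood apart. VIM, vimentin, had effects of -0.20 ± 0.11 and 0.74 ± 0.10, and LAMB1, a laminin chain, -1.34 ± 0.16 and -0.01 ± 0.17. Among 30 interferon-response genes 13 were higher and 3 lower, and OAS3 (-0.26 ± 0.07 and 1.11 ± 0.07) and IFIT5 (-0.91 ± 0.11 and 0.57 ± 0.13), both antiviral effectors, were the 2 with the largest positive differences. Of 25 neuronal and neuroendocrine genes 8 were tested, with 2 higher and 3 lower. SYT4, a synaptotagmin, fell in LNCaP and rose in LNCaP95 (-0.42 ± 0.08 and 1.88 ± 0.08), while TUBB3, a neuronal tubulin, rose in LNCaP only (1.40 ± 0.08 and 0.09 ± 0.09).

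In the machinery to which CPSF1 belongs, 7 of 24 cleavage and polyadenylation factors were higher and 5 lower in LNCaP95, shares near the 26.0% and 25.1% of all genes tested, with differences from -0.57 to 0.59. PCF11, a subunit of cleavage factor II, rose in LNCaP and not in LNCaP95 (0.51 ± 0.06 and -0.05 ± 0.06), whereas CPSF6, of cleavage factor I (-0.05 ± 0.06 and 0.38 ± 0.06), and CSTF2, of the cleavage stimulation factor (0.12 ± 0.07 and 0.55 ± 0.06), rose in LNCaP95. The nuclear poly(A)-binding protein PABPN1 fell in LNCaP and rose in LNCaP95 (-0.20 ± 0.07 and 0.38 ± 0.08). Of 42 genes of transcription termination and RNA decay 16 were lower and 5 higher, with the elongation factor SUPT5H (0.49 ± 0.05 and -0.25 ± 0.05) among those of opposite direction.

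**Figure D5:**
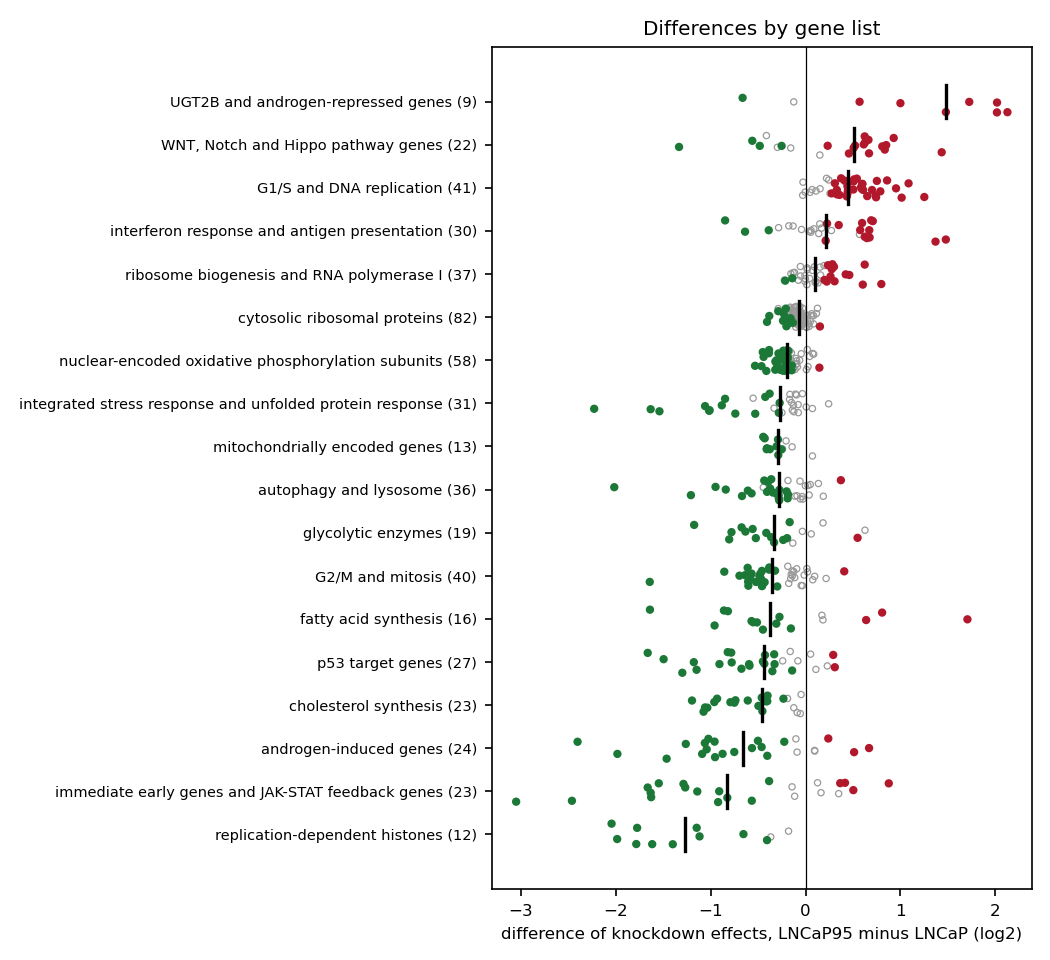
The difference of knockdown effects, LNCaP95 minus LNCaP (horizontal axis, log2), for the tested members of 18 gene lists, with their number in parentheses. Filled points passed an adjusted p below 0.05, open points did not, and black bars are medians, which run from 1.48 for UGT2B and androgen-repressed genes to -1.27 for replication-dependent histones.

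The remaining lists had medians between -0.19 and 0.15, and their counts stand against 26.0% higher and 25.1% lower of all genes tested. Ribosome biogenesis genes rose in both lines, in 26 of 37 in LNCaP and 31 of 37 in LNCaP95, with 13 higher and 2 lower. Cytosolic ribosomal proteins differed in 12 of 82, 1 higher and 11 lower. For aminoacyl-tRNA synthetases the counts were 4 higher and 13 lower of 37, and for serine, folate and polyamine metabolism 7 and 11 of 27. The pentose phosphate pathway gave 3 and 3 of 9, the BCL2 family 6 and 7 of 17, NF-kappaB targets 1 and 3 of 10, and zinc finger genes on chromosome 19 gave 29 and 17 of 171. The cofactors, neuronal genes, aminoacyl-tRNA synthetases and cytosolic ribosomal proteins had medians of 0.015, -0.075, -0.067 and -0.070, and with scaling by library size alone the last 3 turned positive.

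The difference varied with gene length. Genes were divided by genomic span into 5 groups of 2136 or 2137, and the median difference went from -0.075 in the shortest (207 to 10897 bases) to 0.091 in the longest (94147 to 2304638 bases). The share of genes called higher in LNCaP95 was 17.9% in the shortest and 36.0% in the longest, and the share called lower was 30.0% and 20.6%. In LNCaP the median effect went from 0.017 to -0.044 and in LNCaP95 from -0.056 to 0.052. The same division by summed exon length gave medians from -0.073 to 0.084. Genes are not independent replicates, and this is a description with no test.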

How the data were processed

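RNA was sequenced as stranded poly(A) libraries. Per the labels and the study's methods, reads were aligned to GRCh37 with HISAT2 (2.1.0), and the authors deposited raw exon counts per gene made with Subread, which were used here unchanged. The submitters' processing notes give Subread 2.0.3, and the study's methods another version. Of 27 libraries, 18 were used, with 8515624 to 15904518 counts each. The 10686 genes of 20268 above 2 CPM in every library were fitted with edgeR (4.0.16; TMM scaling, quasi-likelihood test, no covariates) over 4 groups, and Benjamini-Hochberg adjustment covered all genes tested, with a threshold of 0.05. The classes combine the test of the difference with the test in each line. Genes expressed in one line (mean under 0.5 CPM in the other) were tested within that line. Named genes were those with the largest effects in each class under fixed ranking rules, and list members with the largest differences or best known. Genes of opposite direction were ranked only if CPSF1 sh and CTRL sh libraries did not overlap in either line. Genes that responded in one line only were ranked only if they did not overlap in that line. Members and lists were chosen with earlier results of these data known. Scripts were tested on simulated data. Alternatives covered filters, scaling, DESeq2 (1.42.0), hairpins, all libraries, a replicate block and each library left out. Lists got no set test. Some list members count in the totals but are not reported here by name.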

Additional observations from a re-analysis of the deposited data

Results flagged for a closer look

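The test of the difference between the lines was passed by 2774 genes on the higher and 2682 on the lower side, and by 523 and 493 genes with opposite responses. The difference between the lines itself differed between the hairpins in 2288 of 10686 genes, by a test added after the data were seen, and among CPSF1 and the 46 genes named by rank within the classes it did so in 19, none with a change of sign. Among genes named as list members, ASNS, VEGFA, PDK1, CDK2 and TK1 had a difference that did so with a change of sign. The 46 genes had been chosen for large effects or differences over both hairpins together, which made a change of sign among them unlikely beforehand.

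Among 118 groups of 6 CPSF1 sh libraries, 11 (9.32%) held a library far from the others, by the gap to the nearest divided by the whole range. Chance gives about 5% for 6 values of one normal distribution. These groups join 2 hairpins and some hold values near 0, so that the 2 shares cannot be compared. Of these, 5 were in LNCaP CPSF1 sh1 replicate 3, the library that stood apart, namely ID2 (37.9 CPM against 30.2 in the next library, ratio 0.639), KRT19 (22.0 against 12.2, 0.755), CLU (113 against 73.9, 0.716), ETV4 (2.58 against 0.122, 0.953) and TGFB1 (0.793 against 0.183, 0.769). In LNCaP95 CPSF1 sh2 replicate 2, CLU and CNGB3 had 0.0816 CPM each and the other 5 libraries had none, a ratio of 1 for both. CA9 likewise had 0.224 CPM in LNCaP CPSF1 sh2 replicate 2 alone. The others were ZNF165 in LNCaP95 CPSF1 sh1 replicate 2 (10.7 against 8.58 CPM, 0.657), TTC18 in LNCaP95 CPSF1 sh2 replicate 1 (42.5 against 32.7, 0.826) and PLP2 in LNCaP95 CPSF1 sh2 replicate 3 (28.4 against 24.5, 0.65). The part of cells or reads of the other line in these values was not tested.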

How the results depend on the processing

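The 46 genes named by rank within the classes and fitted in both lines kept the direction and the call of their difference under 32 alternatives each. They had been chosen for large effects or differences in these same libraries, so this is no independent check. Of genes named as list members, ASNS, VEGFA, PDK1, CDK2 and TK1 had differences that differed between hairpins with a change of sign. List medians moved by less than the spread between replicates in 881 combinations of list and alternative and by more in 143. The counts of list members called were classed as moved in 137 cases and as the same in 1911. An absolute difference above 1 log2 left 308 higher and 202 lower genes, 163 and 86 of opposite direction, 109 in LNCaP95 only and 67 in LNCaP only. Scaling by library size alone shifted the median of all genes by 0.092. It gave 738 genes that rose in LNCaP95 and fell in LNCaP, and 327 with the reverse. Upper quartile scaling gave 710 and 350. Of called differences 66.1% were higher with library size alone, against 50.8% with TMM and 62.7% with upper quartile scaling. Library size alone turned the medians of aminoacyl-tRNA synthetases (0.026), cytosolic ribosomal proteins (0.023) and neuronal genes (0.017) positive. It brought those of oxidative phosphorylation subunits, citric acid cycle genes, the stress response list and lysosomal genes to -0.10, -0.030, -0.18 and -0.18. Without a filter the medians of neuronal, histone and immediate early genes were -0.62, -0.73 and -0.47. Genes expressed in LNCaP95 only and higher numbered 55 with a limit of 1 CPM, and those lower ranged from 14 to 24 when a library was left out. The CPSF1 difference was called with filterByExpr (-0.28), with hairpins as separate groups (-0.24) and with CPSF1 sh1 alone (-0.29), and ranged from -0.34 to -0.14 without a library. The cause was not tested. Libraries with the same replicate number had correlated deviations from their group means in some pairs only (r from -0.256 to 0.305, over 0.1 in 6 of 18 pairs). Libraries with different numbers were not compared, so whether the numbers pair libraries is not settled. With a replicate block 2617 genes were higher and 2533 lower, 476 of 523 and 444 of 493 opposite genes kept their class, and the CPSF1 difference was -0.23. The test was limited to genes above 2 CPM by choice of filter, and with filterByExpr 13478 genes were tested.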

Other observations

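Expression in the lines was compared within each arm. The median absolute log2 ratio of LNCaP95 to LNCaP over 10686 genes was 0.393 between CTRL sh libraries, 0.369 between CPSF1 sh1 libraries and 0.329 between CPSF1 sh2 libraries, 3 per line in each arm. Genes above a 2-fold difference between the lines numbered 1451 (13.6%), 1166 (10.9%) and 968 (9.06%) in these arms. These are descriptions over genes, with no test.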
